A study of Mus musculus with 21 samples.

Results

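The 8 genes followed here were Wnt4, Lhx1, Nphs1, Podxl, Synpo, Ptpro, Hnf4a and Lrp2, which are known for the early nephron, the podocyte and the proximal tubule of the developing kidney. They were chosen by symbol, from genes named with earlier results of these data known. Each was found as a single row among the 23827 rows of every file, and all 8 carried an mRNA accession (Wnt4 NM_009523, Lhx1 NM_008498, Nphs1 NM_019459, Podxl NM_013723, Hnf4a NM_008261 and Lrp2 NM_001081088, with the isoforms of Synpo and of Ptpro each merged into 1 row).

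The series held 21 libraries in 7 groups of 3, all from E14.5 mouse embryos heterozygous for Gt(ROSA)26Sor-mCherry-Rpl10a, an allele in which Cre recombination lets the ubiquitous CAGGS promoter express an mCherry-tagged ribosomal protein. Translating ribosome affinity purification (TRAP) pulls down the tagged ribosomes with the RNA bound to them. Forebrain and kidney with Sox2Cre+/-, which recombines in all epiblast derivatives, gave whole-organ libraries of 2 kinds, the transcriptome from total RNA and the translatome from RNA on tagged ribosomes. Forebrain and kidney with Cdh5CreERT2+/-, a tamoxifen-dependent driver active in endothelium, gave the endothelial cell (EC) translatomes, with tamoxifen given by oral gavage. Forebrain with Emx1Cre+/-, a driver of the dorsal telencephalon, gave the Emx1-lineage translatome. A library pooled 2 forebrains, 4 kidneys in the Sox2Cre groups or 6 kidneys in the kidney EC group, and the allele was derived from 1 targeted embryonic stem cell clone. The kidney transcriptome and translatome libraries with the same number came from the same tissue sample.

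Nephrons arise from mesenchymal progenitors that condense around the ureteric bud tips and turn epithelial as a renal vesicle. Wnt4 is the secreted signal that drives this transition, and Lhx1 is a homeodomain transcription factor that the renal vesicle needs to be patterned. The proximal end of the vesicle then forms podocytes, whose foot processes are joined by the slit diaphragm, and the segment beyond it forms the proximal tubule, which takes up filtered protein and solutes. Nphs1 encodes nephrin, the adhesion protein of the slit diaphragm. Podxl encodes podocalyxin, the sialomucin that coats podocytes and that vascular endothelium also carries. Synpo encodes synaptopodin, an actin-binding protein of foot processes and of dendritic spines. Ptpro encodes GLEPP1, a receptor tyrosine phosphatase of podocytes that neurons also express. Hnf4a is a nuclear receptor that promotes proximal tubule differentiation, and Lrp2 encodes megalin, the endocytic receptor of the proximal tubule brush border.

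On GRCm38 (GENCODE vM21), Wnt4 lies at chr4:137277489-137299726 on the plus strand, Lhx1 at chr11:84518284-84525535 on the minus strand and Nphs1 at chr7:30458315-30487223 on the plus strand. Podxl and Ptpro share chromosome 6, at chr6:31519488-31563981 (minus) and chr6:137252319-137463233 (plus). Hnf4a and Lrp2 share chromosome 2, at chr2:163506808-163572910 (plus) and chr2:69424340-69586065 (minus). Promoter windows of 300 bases, 250 before and 50 after the start site, were read from RefSeq (GRCm38.p6) for 6 of the 8 genes, with 7 windows in all because Hnf4a has 2. No entry was matched for Podxl or Synpo.

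The windows are shown for 1 gene that was depleted from the kidney EC translatome and for 2 that were enriched in it, with every CpG in capitals. Wnt4 (chr4:137277385-137277684, plus) held 51 CpG at 84.3% GC, Nphs1 (chr7:30459808-30460107, plus) 6 at 49.7% and Lrp2 (chr2:69585980-69586279, minus) 20 at 65.0%, against medians of 7 CpG and 52.7% GC over 32851 mouse windows of the same length.
Wnt4: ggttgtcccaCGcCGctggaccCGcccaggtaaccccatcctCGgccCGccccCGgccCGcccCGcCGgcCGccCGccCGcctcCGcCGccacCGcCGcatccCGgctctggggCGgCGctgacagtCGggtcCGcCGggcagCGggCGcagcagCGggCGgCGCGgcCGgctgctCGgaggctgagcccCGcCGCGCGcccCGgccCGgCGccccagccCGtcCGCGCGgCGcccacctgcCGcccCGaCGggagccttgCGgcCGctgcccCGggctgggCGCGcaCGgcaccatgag
Nphs1: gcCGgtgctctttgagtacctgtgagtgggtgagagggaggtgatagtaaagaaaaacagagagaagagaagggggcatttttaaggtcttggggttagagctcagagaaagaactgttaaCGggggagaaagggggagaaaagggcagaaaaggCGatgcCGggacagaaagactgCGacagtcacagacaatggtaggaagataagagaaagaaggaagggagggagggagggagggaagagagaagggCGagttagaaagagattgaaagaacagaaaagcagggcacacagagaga
Lrp2: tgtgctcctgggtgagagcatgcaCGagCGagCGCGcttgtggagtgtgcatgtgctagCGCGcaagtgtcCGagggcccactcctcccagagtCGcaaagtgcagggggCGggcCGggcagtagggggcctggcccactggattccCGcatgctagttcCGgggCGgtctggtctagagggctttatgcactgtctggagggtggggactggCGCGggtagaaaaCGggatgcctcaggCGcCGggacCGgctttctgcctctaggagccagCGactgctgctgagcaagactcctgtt
Among the other windows, that of Lhx1 held 31 CpG, that of Ptpro 5 and each of the 2 Hnf4a windows 4. Wnt4 and Lhx1 thus held the most among the windows read, followed by Lrp2. A relation to nephron stage was not tested.

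Between 21760652 and 79231692 reads were counted on genes per library, with the lowest totals in the kidney translatome (21760652 to 24605124) and 33237550 to 45166528 in kidney EC. The labels were checked against marker lists. All 12 endothelial markers were higher in both EC groups than in the translatome of the same organ, all 10 nephron progenitor and all 10 ureteric bud markers were higher in the kidney than in the brain transcriptome, and all 8 forebrain neural markers were lower there. Each EC group was sequenced in a lane of its own, so lane and group cannot be told apart in the EC comparisons. The kidney and brain transcriptomes shared no lane, so the same holds between them. The kidney transcriptome libraries shared a lane with kidney translatome 3, while kidney translatome 1 and 2 were in another. In these bulk libraries, a change in the number of cells of a type and a change in RNA per cell cannot be told apart either.

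**Figure D1:**
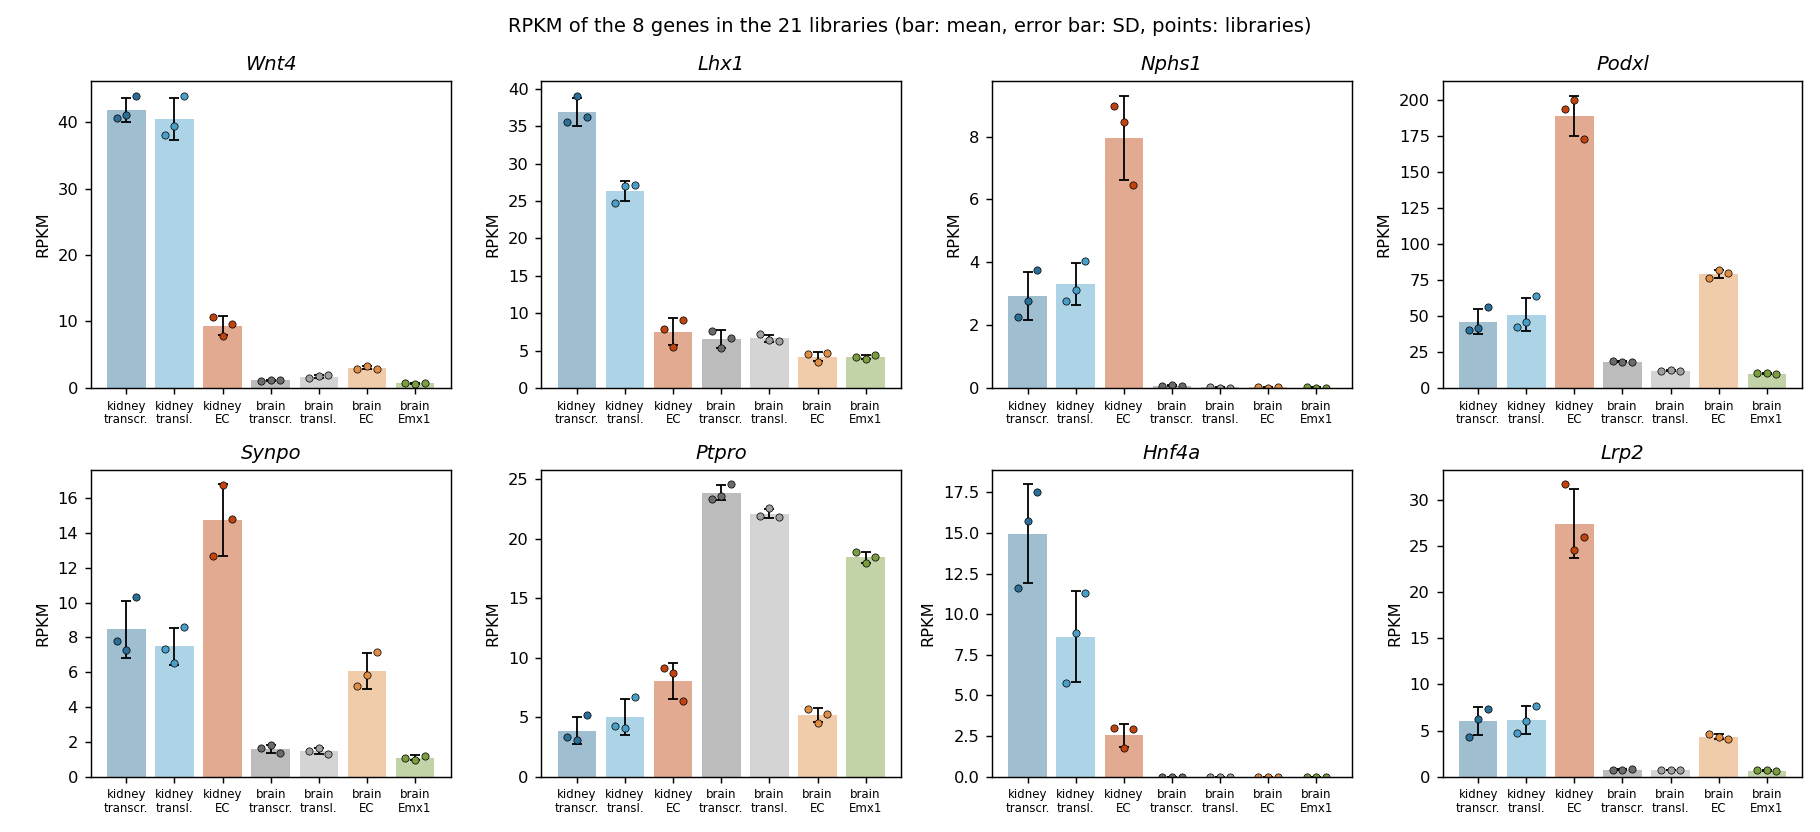
RPKM (reads scaled by transcript length and library size) of each gene on the y axis in the 7 groups on the x axis, with bars for the mean, error bars for the SD and points for the 3 libraries. Wnt4, Lhx1 and Hnf4a stood highest in the whole-kidney libraries, Nphs1, Podxl, Synpo and Lrp2 in kidney EC, and Ptpro in whole brain.

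The first question was how high each gene stood in whole-kidney RNA and how its ribosome-bound level compared with that in total RNA. Here, on ribosomes means in the RNA pulled down with tagged ribosomes. The paper cautions that part of such differences may come from the method, for example from unequal amounts of the tagged protein between cell types. That part was not tested here. Levels are RPKM, which is per transcript length and can be set side by side between genes. In the kidney transcriptome, Podxl (46.1 ± 8.89, SD, n = 3), Wnt4 (41.9 ± 1.81) and Lhx1 (36.9 ± 1.91) stood well above Hnf4a (15.0 ± 3.05), Synpo (8.46 ± 1.64), Lrp2 (5.99 ± 1.52), Ptpro (3.85 ± 1.12) and Nphs1 (2.93 ± 0.772). Among the 8 genes, Wnt4 and Lhx1 were thus at higher RPKM than the slit diaphragm and brush border genes Nphs1 and Lrp2. The mean of the podocyte gene Podxl was above both, and an order by nephron stage was not tested.

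Lhx1 was lower on ribosomes than in total RNA. Its RPKM was 35.5, 39.1 and 36.2 in the 3 transcriptome libraries and 24.8, 27.0 and 27.2 in the 3 translatome libraries, with no overlap. The log2 fold change was -0.49 (SE 0.05, edgeR quasi-likelihood test, Benjamini-Hochberg adjusted p = 1.77e-05). It was the only 1 of the 8 genes called at an adjusted p under 0.001, against 15.8% of the 19336 genes tested that were called lower and 14.9% that were called higher. The call was lost in a single fit of all 21 libraries (log2 fold change -0.48, adjusted p = 0.00521), and with the libraries of a shared lane, which hold a single translatome library, the log2 fold change was -0.43.

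Hnf4a had a lower value still but a wide spread. Its RPKM was 11.6, 15.7 and 17.5 in the transcriptome and 5.74, 8.82 and 11.3 in the translatome, so the ranges did not overlap, and the log2 fold change of -0.79 (SE 0.21) did not pass the threshold (adjusted p = 0.00947). The libraries are paired, however, and within the 3 tissue samples the ratio of translatome to transcriptome RPKM of Hnf4a was 0.495, 0.561 and 0.645. With the tissue sample as a block the adjusted p was 1.01e-60 at a log2 fold change of -0.82. That fit set the dispersion of every gene to the trend, so its p-values rest on the trend and not on the spread of each gene.

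With the block, 2 of the 8 genes were called higher and 3 lower. Over all 19336 genes tested, that fit called 4636 higher and 4860 lower, so the counts of the 8 were near the background. Ptpro was higher on ribosomes at ratios of 1.28, 1.31 and 1.31 in the 3 tissue samples (log2 fold change 0.38, adjusted p = 4.02e-11), and Podxl at 1.05, 1.11 and 1.13 (0.14, adjusted p = 7.68e-04). Synpo was lower at 0.942, 0.898 and 0.831 (-0.20, adjusted p = 1.42e-04), as was Lhx1 at 0.698, 0.691 and 0.752. Without the block, the 95% intervals of the log2 fold change included 0 for Podxl (-0.20 to 0.49), Synpo (-0.51 to 0.09) and Ptpro (-0.10 to 0.87). Wnt4, Nphs1 and Lrp2 were not called in either fit. Wnt4 had the narrowest interval of the 3, from -0.17 to 0.08, with RPKM of 40.7, 41.1 and 43.98 in total RNA and 38.0, 39.5 and 44.01 on ribosomes. The intervals of Nphs1 (-0.24 to 0.60) and Lrp2 (-0.39 to 0.47) were wider.

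**Figure D2:**
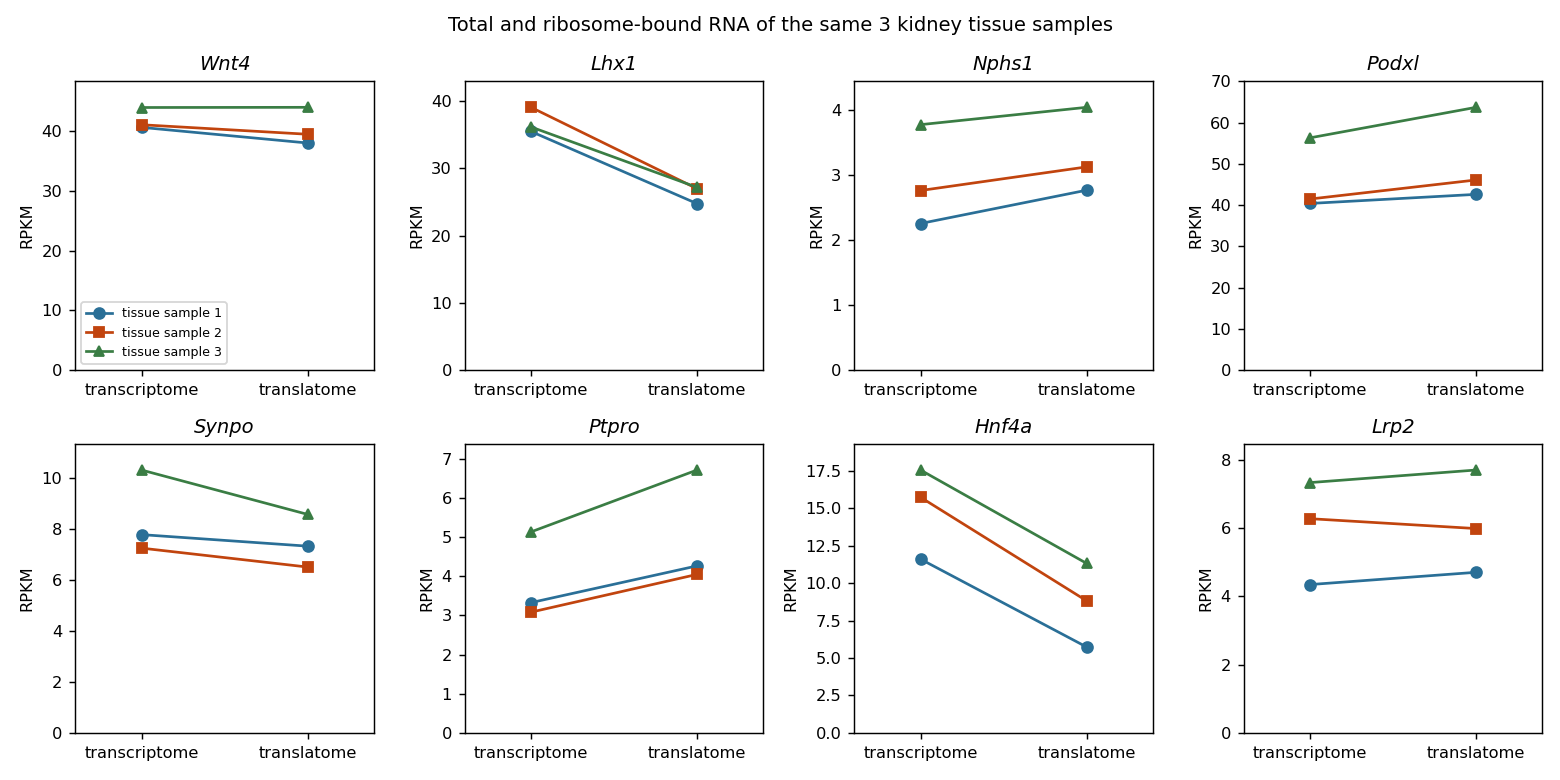
RPKM on the y axis of each gene in the transcriptome and the translatome of the same kidney tissue sample, with a line and a symbol for each of the 3 samples. In all 3 samples the lines of Lhx1, Synpo and Hnf4a ran down and those of Nphs1, Podxl and Ptpro ran up, and sample 3 was the highest in both RNAs for every gene but Lhx1.

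Tissue sample 3 had the highest RPKM in both RNAs for 7 of the 8 genes, Lhx1 being the exception. Among the 12882 rows with a mean kidney transcriptome RPKM over 1, 16.2% showed this order. It held for 11 of 20 podocyte markers, 6 of 12 endothelial, 4 of 10 proximal tubule and 1 of 10 nephron progenitor markers past the same level. Podxl, for instance, stood at 40.4 and 41.5 RPKM in transcriptome libraries 1 and 2 and at 56.3 in library 3, and at 42.6, 46.1 and 63.7 in the translatome. Nphs1 ranged 1.67-fold over the 3 transcriptome libraries and Lrp2 1.69-fold, against 1.08-fold for Wnt4 and 1.101-fold for Lhx1. Translatome library 3 was sequenced in the lane of the transcriptome libraries, and translatome libraries 1 and 2 in another. The sample numbers are names, and what set sample 3 apart was not tested.

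Among the nephron lists around these 8 genes, the proximal tubule list had the lowest median between ribosome-bound and total RNA. Of 18 proximal tubule genes, 5 were lower and none was higher on ribosomes (median log2 fold change -0.84, against -0.03 over all genes tested). The list summed to 89.3 to 103 RPKM per translatome library and 123 to 153 per transcriptome library. Its median rests in part on genes with few reads, such as Slc5a12 (2 to 6 per translatome library), Miox (0 to 1) and Ass1 (0 to 1). Of 16 renal vesicle and early nephron genes 1 was higher and 5 were lower (median -0.31), and of 22 podocyte genes 1 was higher and 5 were lower (median -0.07). Of 10 nephron progenitor genes 3 were lower (median 0.05). Red blood cell markers summed to 15.0 to 22.5 RPKM in the translatome and 76.3 to 121 in the transcriptome, with 4 of the 6 measured lower on ribosomes, and endothelial markers to 468 to 499 and 351 to 389, with 6 of 12 higher on ribosomes. The part of these cell types in the values above was not tested.

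The second question was how these transcripts stood in RNA pulled down with ribosomes tagged in kidney endothelium. The paper names background RNA from the rest of the organ as a concern in such libraries. The 8 genes divided into 2 sets. Podxl, Lrp2, Nphs1, Synpo and Ptpro were enriched in the kidney EC translatome over the whole-kidney translatome, and Wnt4, Lhx1 and Hnf4a were depleted from it. All 8 were called, 5 higher against 16.7% of 18940 genes tested and 3 lower against 15% of them. The median log2 fold change of the 8 was 1.19, and that of all genes was -0.04. edgeR fold changes include composition factors and were larger than ratios of mean RPKM for the enriched genes (4.76-fold against 3.72-fold for Podxl). For the depleted genes they showed a smaller drop than the RPKM did (a fold of 0.297 against an RPKM ratio of 0.232 for Wnt4). Without those factors the median of all genes moved by -0.37 and the calls went from 3163 higher and 2837 lower to 1564 and 5655, and none of the 8 genes changed direction.

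**Figure D3:**
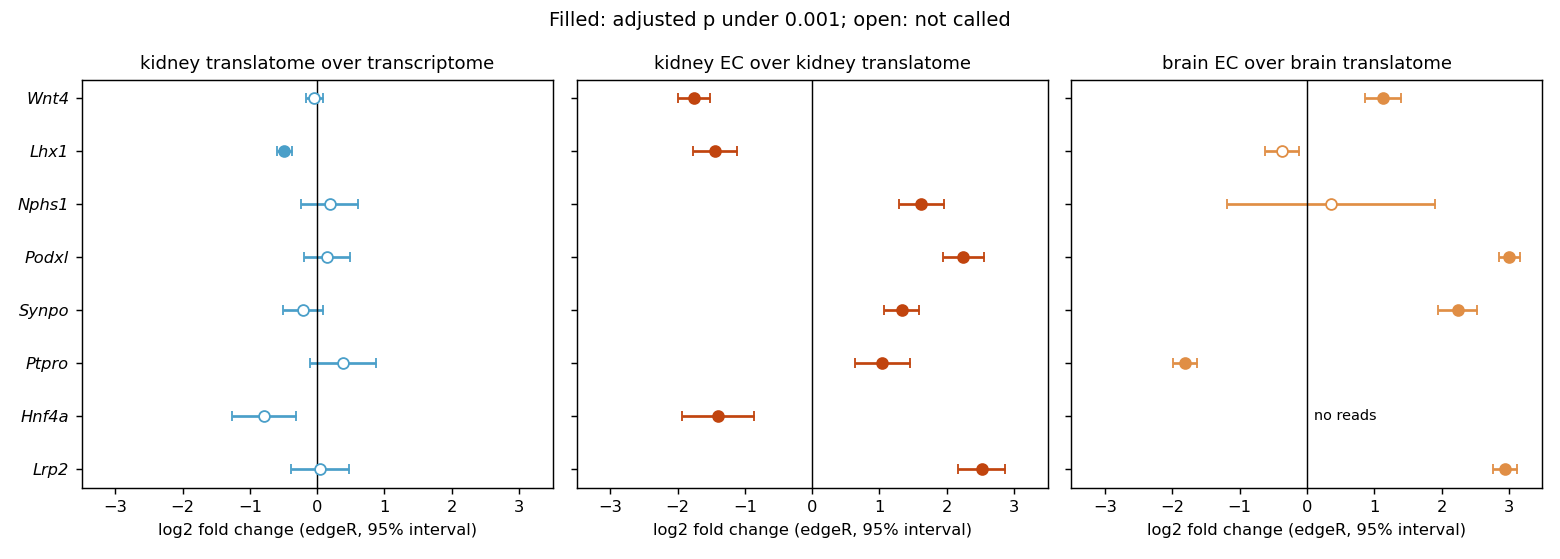
log2 fold change on the x axis with its 95% interval for each gene on the y axis, in 3 comparisons, with filled points for an adjusted p under 0.001. The 8 genes lay between -0.79 and 0.38 for translatome over transcriptome, divided into 5 higher and 3 lower in kidney EC, and in brain EC Wnt4 was higher and Ptpro lower, opposite to kidney EC.

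Wnt4, the inducer of the renal vesicle, fell from 38.0, 39.5 and 44.01 RPKM in the kidney translatome to 10.7, 7.80 and 9.68 in kidney EC, with a wide gap between the groups. The log2 fold change was -1.75 (SE 0.11, adjusted p = 1.64e-07), or 3.37-fold lower. Lhx1 fell from 24.8, 27.0 and 27.2 to 7.91, 5.53 and 9.13 RPKM, 2.72-fold lower (-1.44, SE 0.15, adjusted p = 1.02e-05). Neither gene reached 0. Their mean EC level was 9.38 ± 1.46 RPKM for Wnt4 and 7.52 ± 1.83 for Lhx1, on 976 to 1809 and 498 to 1033 reads per library.

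The nephron progenitor list moved the same way as Wnt4 and Lhx1, with all 10 genes lower in kidney EC (median -1.92). Its summed RPKM was 74.99 to 104 per EC library and 449 to 487 per translatome library. The 3 most abundant, the progenitor transcription factors Six2 (-2.71), Pax2 (-1.90) and Sall1 (-1.52), were among them. Of the 16 renal vesicle and early nephron genes, 10 were lower and 2 higher (median -1.12), the sums being 357 to 380 and 493 to 540 RPKM. The Wnt modulator Sfrp2 (-2.23) and the nephron lineage factor Pax8 (-2.03) were lower, and the cyclin Ccnd1 (0.62), the most abundant of this list, was higher. Irx3, the other that was higher (2.46), was named after its value was seen.

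Podxl had the highest level of the 8 genes in kidney EC. It stood at 42.6, 46.1 and 63.7 RPKM in the kidney translatome and at 194, 199.9 and 173 in kidney EC, 4.76-fold higher (log2 fold change 2.25, SE 0.14, adjusted p = 1.57e-07). The lowest EC library was still well above the highest translatome library. The 12 endothelial markers had a median of 2.98, or 7.89-fold, with Cdh5, the endothelial cadherin, at 3.16 and Pecam1 at 2.93, and values between 2.48 and 3.18 for the whole list, so the value of Podxl was below each of them. Its family differed among itself. Cd34, the related sialomucin of endothelium and blood progenitors, was enriched at 2.94, and Podxl2 (endoglycan) was depleted at -2.01.

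Nphs1 was also enriched in kidney EC. It stood at 2.76, 3.12 and 4.03 RPKM in the kidney translatome and at 8.98, 8.47 and 6.45 in kidney EC, with no overlap, 3.08-fold higher (log2 fold change 1.63, SE 0.15, adjusted p = 4.18e-06). Synpo followed, at 7.34, 6.52 and 8.59 RPKM against 12.7, 16.8 and 14.8, 2.52-fold higher (1.33, SE 0.12, adjusted p = 3.01e-06). The 3 EC libraries of both genes were above all translatome libraries.

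Ptpro was the weakest of the 4 podocyte genes. It stood at 4.27, 4.05 and 6.72 RPKM in the translatome and at 9.11, 8.74 and 6.32 in kidney EC, and translatome library 3 was above EC library 3, so the ranges overlapped. Its log2 fold change was 1.04 (SE 0.19, adjusted p = 6.23e-04). The call was lost without composition factors (0.68, adjusted p = 0.00672), with the count filter (adjusted p = 0.00181), and without kidney translatome 1 (0.00336), kidney translatome 2 (0.00215), kidney EC 1 (0.00272) or kidney EC 2 (0.00141).

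The wider podocyte list was mixed in kidney EC. Of its 22 genes, 9 were higher, 7 were lower and 6 were not called, and its sum per library was 696 to 752 RPKM in EC and 703 to 724 in the translatome, with a median log2 fold change of 0.39. None of the 22 had a mean under 0.1 RPKM in kidney EC. The podocyte transcription factors Tcf21 (-1.72) and Wt1 (-1.38), the 2 most abundant of the list in the whole kidney, were lower. The actin crosslinker Actn4 (1.88) was higher. The slit diaphragm gene Nphs1 and the podocyte factors Wt1 and Tcf21 thus stood on opposite sides in the same libraries. The part of podocyte RNA in the EC values was not tested.

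The 2 tubule genes went opposite ways. Lrp2 had the largest positive log2 fold change of the 8 genes in kidney EC. It stood at 4.71, 5.99 and 7.71 RPKM in the translatome and at 31.7, 24.6 and 26.05 in kidney EC, 5.73-fold higher (2.52, SE 0.16, adjusted p = 2.17e-07). Hnf4a fell from 5.74, 8.82 and 11.3 to 2.97, 1.74 and 2.91 RPKM, 2.63-fold lower (-1.40, SE 0.24, adjusted p = 5.26e-04), with no overlap. The Hnf4a call was lost with the count filter (adjusted p = 0.00131) and without kidney translatome 2 (0.00133), kidney translatome 3 (0.00468, -1.15) or kidney EC 1 (0.00105).

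The proximal tubule list was closer to Hnf4a than to Lrp2. Of its 18 genes 1 was higher, 3 were lower and 14 were not called (median -0.93), with sums of 68.5 to 72.8 RPKM in EC and 89.3 to 103 in the translatome, and Slc5a2, Slc5a12 and Miox had means under 0.1 RPKM in kidney EC. The lower ones included the tubule cadherin Cdh16 (-1.59) and the scaffold Pdzk1 (-1.14). The higher one was the water channel Aqp1 (2.41). Cubn, the megalin partner cubilin, had a log2 fold change of 0.86 (adjusted p = 0.001004) at a mean of 1.36 RPKM in EC, and Dab2, the endocytic adaptor of megalin, -0.31 (adjusted p = 0.00206), and neither was called. Aqp1 and Cubn were named after their values were seen.

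**Figure D4:**
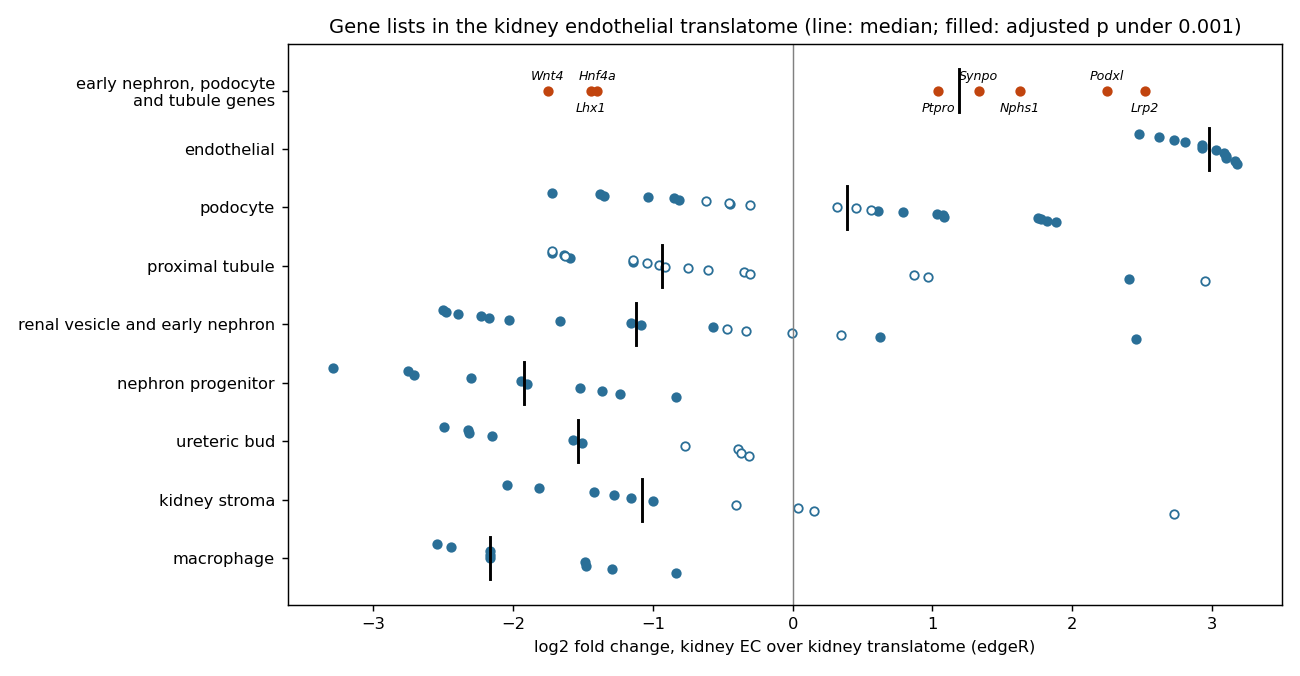
log2 fold change on the x axis of kidney EC over the kidney translatome for the 8 genes and for 8 marker lists on the y axis, with a point per gene, filled where the adjusted p was under 0.001, and a line at the median. The 12 endothelial genes lay at the right and the nephron progenitor, ureteric bud, stroma and macrophage medians at the left, and the podocyte list spread over both sides.

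Markers of the other kidney cell types were mostly lower in the EC libraries. Of 10 ureteric bud genes 6 were lower and none higher (median -1.54, summed RPKM 85.9 to 101 in EC and 226 to 302 in the translatome), with the calcium-binding protein Calb1 at -2.49, the transcription factor Emx2 at -2.32 and the keratin Krt18 at -0.39, not called. Of 10 stromal genes 6 were lower and none higher (median -1.07, 449 to 578 and 725 to 870), although the most abundant, Col3a1 (0.15) and Col1a1 (-0.40), were not called. All 9 measured macrophage genes were lower (median -2.16, 9.53 to 9.87 and 41.2 to 47.4), among them Lyz2 (-2.44), C1qb (-2.17) and C1qc (-2.16). Of the 6 measured red blood cell genes 1 was lower (Hba-x, -1.10), with 7.97 to 9.85 RPKM summed in EC and 15.0 to 22.5 in the translatome.

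Against the kidney transcriptome, which shares the EC libraries with the comparison above, the 8 genes took the same sides, 5 higher (background 22.7%) and 3 lower (18.4%). The log2 fold changes were 2.63 for Lrp2, 2.47 for Podxl, 1.88 for Nphs1, 1.497 for Ptpro, 1.20 for Synpo, -1.73 for Wnt4, -1.86 for Lhx1 and -2.12 for Hnf4a. None of the 8 genes overlapped between these groups, but the share of all genes without overlap was not counted. Ptpro and Hnf4a, the weakest calls against the translatome, had adjusted p-values of 7.28e-05 and 1.06e-05 here. Without composition factors the calls over all genes went from 4388 higher and 3550 lower to 2246 and 6864, with the median moved by -0.43.

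The third question was whether the brain EC translatome shared these differences. In whole brain, Hnf4a was nearly silent, with 0, 1 and 1 reads in the transcriptome libraries and none in the translatome and EC libraries, and Nphs1 gave 14 to 22 reads per transcriptome library (0.0682 ± 0.0124 RPKM). In all, 7 of the 8 genes were higher in the kidney than in the brain transcriptome (background 26.3%), with log2 fold changes of 5.22 for Nphs1, 5.03 for Wnt4, 2.80 for Lrp2, 2.31 for Lhx1, 2.20 for Synpo and 1.15 for Podxl. For Hnf4a the ratio of normalized reads was 4141 (7721 reads against 2, exact 95% counting interval 1146 to 34197). Ptpro was the exception, 7.16-fold lower in kidney (-2.84, SE 0.14, adjusted p = 1.26e-08, background 27.2%), at 23.4, 23.6 and 24.6 RPKM in brain and 3.33, 3.09 and 5.14 in kidney. Without composition factors the calls over all genes went from 5218 higher and 5398 lower to 6384 and 4534, and the median moved by 0.18.

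Podxl, Lrp2 and Synpo were enriched in brain EC over the brain translatome, as they were in kidney. Podxl rose from 11.9, 12.3 and 12.0 RPKM to 76.2, 81.6 and 79.8, 8.03-fold higher (log2 fold change 3.01, SE 0.07, adjusted p = 9.75e-13). Lrp2 rose from 0.686, 0.703 and 0.684 to 4.62, 4.32 and 4.10 RPKM, 7.69-fold (2.94, SE 0.08, adjusted p = 2.96e-12). Synpo rose from 1.45, 1.65 and 1.32 to 5.19, 5.82 and 7.18 RPKM, 4.72-fold (2.24, SE 0.13, adjusted p = 5.17e-09). The lowest EC library was above the highest translatome library for each of the 3.

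Wnt4 and Ptpro went the other way from kidney. Wnt4 was higher in brain EC, at 2.84, 3.28 and 2.91 RPKM against 1.44, 1.73 and 1.89 (1.13, SE 0.12, adjusted p = 2.81e-06), although its level there was a fraction of that in whole kidney. Ptpro was lower, at 5.67, 4.52 and 5.28 RPKM against 21.9, 22.5 and 21.9, 3.505-fold (-1.81, SE 0.08, adjusted p = 3.92e-10). Lhx1 (-0.37, adjusted p = 0.0115) and Nphs1 (0.35, adjusted p = 0.683, at 1 to 7 reads per library) were not called. Of the 7 genes tested, 4 were called higher against 24.8% of 19103 genes and 1 lower against 21.4%. Without composition factors the calls over all genes went from 4740 higher and 4084 lower to 3397 and 6002 (median moved by -0.30), and Lhx1 was then called lower too (-0.67, adjusted p = 1.49e-04). The endothelial list was 12 of 12 higher at a median of 22.4-fold, all 8 forebrain neural markers were lower (443 to 577 RPKM summed in EC, 2549 to 2565 in the translatome), and Cd34 (4.70) and Podxl2 (-2.64) stood on the same sides as in kidney. Of the 22 podocyte genes 13 were higher and 4 lower, while Wt1, Tcf21 and Col4a4 had means under 0.1 RPKM in brain EC.

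The difference between organs was tested itself, as the kidney EC enrichment minus the brain EC enrichment in 1 fit of 12 libraries, where the median of all 19764 genes was -0.15. It was negative for Wnt4 (-2.91, SE 0.17, adjusted p = 7.23e-10), Lhx1 (-1.10, SE 0.21, adjusted p = 3.75e-04), Synpo (-0.94, SE 0.19, adjusted p = 7.61e-04) and Podxl (-0.78, SE 0.16, adjusted p = 6.95e-04) and positive for Ptpro (2.83, SE 0.23, adjusted p = 2.62e-08), against backgrounds of 16.5% lower and 8.6% higher. The Podxl difference was no longer called in 11 of the settings tried, 8 of them with a single library left out (each of the brain translatome and brain EC libraries, kidney EC 1 or kidney EC 3), with values from -0.81 to -0.73. In settings chosen after the data were seen, the Wnt4 and Ptpro differences stayed called in all 19. The Lhx1 difference was lost in 6, without brain translatome 2 or 3, brain EC 1 or 3, or kidney translatome 2 or 3 (adjusted p up to 0.00148). The Synpo difference was lost in 10, namely RLE size factors, the count filter, and without brain translatome 1 or 3, brain EC 2 or 3, kidney translatome 1 or 3, or kidney EC 1 or 3 (adjusted p up to 0.00329). For Lrp2 it was -0.45 (95% interval -0.86 to -0.04, adjusted p = 0.0758), and for Nphs1 1.26 (-0.35 to 2.88, adjusted p = 0.206), with neither called. It could not be fitted for Hnf4a, which had no reads in these brain libraries. The 12 endothelial markers had a median log2 enrichment of 2.98 in kidney EC and 4.48 in brain EC, so their median too was lower in kidney. DESeq2 gave 2724 higher and 3401 lower calls over all genes, against 1700 and 3258.

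The EC translatomes of the 2 organs were also compared directly. In all, 6 of the 8 genes were higher in kidney EC than in brain EC (background 16.9%), and none was lower (20.1%). Podxl stood at 194, 199.9 and 173 RPKM in kidney EC and at 76.2, 81.6 and 79.8 in brain EC, 2.31-fold higher (log2 fold change 1.21, SE 0.08, adjusted p = 2.10e-07), whereas Cd34 was lower in kidney EC (-0.51, adjusted p = 2.01e-04) and Cdh5 (-0.09) and Pecam1 (0.11) were not called. Lrp2 was 6.13-fold higher (2.62, SE 0.11), Wnt4 3.03-fold (1.6, SE 0.13) and Synpo 2.34-fold (1.23, SE 0.13), all without overlap.

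Nphs1 gave 1343 to 2018 reads per kidney EC library and 3 to 7 per brain EC library, a log2 fold change of 8.77 (SE 0.22, adjusted p = 2.16e-10). Hnf4a gave 1343 reads in kidney EC over the group and none in brain EC, and was at least 586-fold higher against a floor of 3 counts over the group. Lhx1 (0.81, adjusted p = 0.00283) and Ptpro (0.59, adjusted p = 0.00244) were not called. The EC libraries of the same number deviated together across genes, and with the number as a block Lhx1 was called (0.79, adjusted p = 1.26e-04). DESeq2 also called Lhx1 (adjusted p = 8.85e-05) and Ptpro (1.75e-04). Without kidney EC 2 Lhx1 was called (0.98, adjusted p = 1.09e-04), and without kidney EC 3 Ptpro was (0.73, adjusted p = 9.85e-05). The 10 nephron progenitor markers summed to 74.99 to 104 RPKM in kidney EC and 31.4 to 38.5 in brain EC, with 7 higher and 2 lower, and their part in these values was not tested.

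The order of the groups differed among the 8 genes. Podxl ran from kidney EC to brain EC, the kidney translatome and transcriptome, and then whole brain, and only the 2 whole-kidney groups overlapped. Lrp2 and Synpo also had kidney EC first, and their brain EC libraries overlapped with those of the neighbouring whole-kidney group. Wnt4, Lhx1 and Hnf4a had the kidney transcriptome first, and for Wnt4 alone the transcriptome and translatome overlapped. Ptpro had the 3 whole-brain and Emx1-lineage groups first (23.8 ± 0.634, 22.1 ± 0.391 and 18.4 ± 0.437 RPKM), then kidney EC, brain EC, the kidney translatome and the kidney transcriptome by mean, of which kidney EC and the kidney translatome overlapped, as did brain EC and both whole-kidney groups. In the Emx1-lineage translatome Podxl stood at 9.91 ± 0.488 RPKM and Hnf4a gave a single read in 3 libraries, and no test was run with this group.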

How the data were processed

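RNA of E14.5 forebrain and kidney was measured by RNA-seq in 21 libraries, 3 in each of 7 groups named by the labels. The authors prepared libraries with the TruSeq RNA kit, mapped reads with RUM 2.04 to GRCm38 and counted them with rpkmforgenes on UCSC refGene (release 20130114). The deposited counts are whole reads per RefSeq gene without normalization, and the deposited RPKM values were computed by the authors per transcript length and library size. Counting by strand is not stated, so reads of a gene and of an antisense partner cannot be told apart. The counts summed to 21760652 to 79231692 reads per library, and intervals cover the spread between 3 libraries a group.

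Counts were tested with edgeR 4.0.16 (TMM, glmQLFit, glmQLFTest, R 4.3.3) on the 6 libraries of a comparison (12 for the difference between organs), over genes with at least 1 count, with Benjamini-Hochberg adjustment over all of them and a threshold of 0.001. The SE was derived from the log2 fold change and the F statistic. The scripts were tested on simulated data. The members and the gene lists were chosen with earlier results of these data known. Named genes are the 8 members, the 3 genes of each list with the highest kidney translatome RPKM, Cdh5, Pecam1, Cd34 and Podxl2, and the 3 genes whose log2(RPKM + 1) correlated best with each member. A few named by this rule are not reported here. The lists held 126 genes, 1 of which (Adgre1) was not among the rows.

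Pairing: kidney transcriptome and translatome libraries of the same number come from the same tissue sample, and their deviations from the group means correlated at 0.680, 0.661 and 0.593 over 13460 genes. Kidney EC and brain EC libraries of the same number correlated at 0.362, 0.143 and 0.171 over 12849 genes, from the labels' numbers only. The other comparisons share numbers without such a relation. The alternatives were DESeq2 1.42.0, RLE size factors, total counts, at least 10 counts in 3 libraries, the replicate block, a single fit of all libraries, a threshold of 0.05, libraries of a shared lane, each library left out, a pseudocount of 0.1, and no RPKM minimum.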

Additional observations from a re-analysis of the deposited data

Results flagged for a closer look

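For 5 of the 8 genes, the endothelial enrichment differed between kidney and brain by a test of the difference itself, in the fit of 12 libraries (edgeR's quasi-likelihood test, adjusted p under 0.001). Of all 19764 genes tested, 16.5% were called lower and 8.6% higher. The log2 difference, kidney minus brain, was -2.91 for Wnt4 and 2.83 for Ptpro, both of which changed in opposite directions in the 2 organs. It was -1.10 for Lhx1, which was depleted in kidney EC and not called in brain EC. It was -0.78 for Podxl and -0.94 for Synpo, which were enriched in the EC of both organs, less so in kidney. This order was not particular to these 2 genes. The median log2 enrichment of the 12 endothelial markers was also lower in kidney EC (2.98) than in brain EC (4.48). Of 19 alternative settings, the call was lost in 11 for Podxl, 10 for Synpo and 6 for Lhx1, and in none for Wnt4 and Ptpro; the settings for genes other than Podxl were chosen after the data were seen. Over all 19764 genes tested the median of this difference was -0.15. No cause of these differences was tested.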

How the results depend on the processing

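Over the 8 genes and 6 comparisons, 618 values were recomputed under the alternatives: 585 kept their direction and their side of the threshold, 13 lost a call, 16 gained one and 4 changed sign. The sign changed only between kidney translatome and transcriptome and only for genes not called, namely Wnt4 with the shared lane alone (0.078), Podxl without kidney translatome 3 (-0.054; range with a library left out -0.054 to 0.31), and Lrp2 without kidney transcriptome 1 (-0.15) or kidney translatome 3 (-0.16; range up to 0.20). In that comparison 0 genes were called higher and 1 lower. The replicate block gave 2 and 3, against 4636 and 4860 of all 19336 genes tested. The fit of all libraries gave 0 lower, and a threshold of 0.05 gave 2 lower. The shared lane held 1 translatome library, assumed to vary like the transcriptome ones, so its number of called genes is not given here. Its values are among the 618, and so enter the totals of lost calls and sign changes. In brain EC against the translatome, total counts and a threshold of 0.05 each gave 2 lower in place of 1. The Podxl difference between organs lost its call with RLE size factors (-0.69, adjusted p = 0.0022), the count filter (-0.77, 0.00146) and the replicate block (-0.77, 0.00117), and with a library left out ranged from -0.89 to -0.59. In settings added after the data were seen, that of Nphs1, not called, was -0.0018 without brain translatome 1 (range with a library left out -0.0018 to 1.59), and no other gene's changed sign. DESeq2 moved the median of all genes in that test by 0.10. Where libraries share only a number, the replicate block ended 1 call besides, Ptpro in kidney EC over the translatome (1.06, adjusted p = 0.0019). Of the 24 best-correlated genes, 11 were kept with a pseudocount of 0.1. The causes were not tested. Lower depth in the kidney translatome and few reads of Nphs1 and Hnf4a in brain limit what could be detected there.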

Other observations

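For each of the 8 genes, genes from the 3 with the most similar log2(RPKM + 1) profile over the 21 libraries are given as a description, among 14549 genes with a mean RPKM of at least 1 in a group. The libraries of a group share organ, driver and RNA type, so Pearson's r mainly follows the 7 group levels. Wnt4 ran with Foxd2 (r = 0.997), Scpep1 (0.995) and 9130206I24Rik (0.995), and Lhx1 with Fgf8 (0.981), a growth factor of the early nephron, Rassf6 (0.980) and Mcoln3 (0.980). Hnf4a ran with Keg1 (0.997) and the chloride channel gene Cftr (0.995).

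The genes enriched in the kidney EC translatome had other neighbours. Podxl ran with Yes1 (0.993), Bcl6b (0.992) and Gpr182 (0.988), and Lrp2 with Arhgef3 (0.988), Exph5 (0.988) and Gpihbp1 (0.987), the lipoprotein lipase carrier of capillary endothelium. Nphs1 ran with Neurl3 (0.995), the fatty acid binding protein gene Fabp4 (0.993) and Cdk18 (0.991). Fabp4 stood at a mean of 235 RPKM in the kidney translatome, 1075 in kidney EC and 0.145 in brain EC. Synpo ran with Elf4 (0.989), Antxr2 (0.988) and Tnfaip2 (0.988), and Ptpro, at lower values, with Ntn4 (0.973), Ccno (0.961) and Fam117b (0.958).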
